A study of Mus musculus with 6 samples.

Results

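The genes described are 10 components of transforming growth factor β (TGF-β) signalling, Tgfb1, Tgfbr1, Tgfbr2, Tgfbr3, Smad2, Smad3, Smad4, Smad7, Ski and Skil, taken by symbol from a table of 24628 mouse genes. They were measured by RNA-seq in 6 lymphocyte libraries, which the series text calls ILC1s, innate lymphocytes that produce interferon-γ. The conditional knockout (cKO) libraries were the 3 titled treatment, whose column names join Ncr1 to Rora, and they were taken as the conditional knockout group because the series text compares wild-type with cKO cells. Their controls were 3 libraries titled Rorafl/fl, with floxed alleles of Rora, the gene of the nuclear receptor RORα. Ncr1 encodes NKp46, a receptor of natural killer (NK) cells and ILC1s, but the labels name no Cre line, deleted exon, age, sex, tissue, sort gate or number of animals. Whether replicates were separate animals is not said either, and the spread behind each p-value may therefore be technical.

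TGF-β is secreted in a latent form and, once released, binds the type 2 receptor, which recruits and activates the type 1 receptor. The type 1 receptor phosphorylates SMAD2 and SMAD3, which join SMAD4 and regulate genes in the nucleus, among them the genes of their own inhibitors SMAD7 and SnoN (Skil). In mouse NK cells TGF-β favours features of ILC1s, and ILC1s of the mouse salivary gland carry its imprint.

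Each library held 21111333 to 22440170 reads assigned to genes in the cKO group and 20152146 to 21711523 in the floxed group. Rora itself was at 5.69, 6.29 and 6.24 RPKM (a read count divided by gene length and library depth) in cKO libraries, against 6.92, 7.41 and 7.91 RPKM in floxed libraries. Its log2 difference was -0.25 (limma's adjusted p = 0.242), and whole-gene RPKM does not check a deletion whose exons are not given. All 10 ILC1 markers reached 1 RPKM in at least 1 library, with Ncr1 at 246 ± 12.5 RPKM in cKO and 372 ± 10.8 RPKM in floxed libraries (SD, n = 3 each), and 8 of 8 conventional NK markers did so as well. The cKO libraries also had less Xist (9.43 ± 0.394 RPKM, against 31.9 ± 3.16 RPKM in floxed libraries) and more of the Y-linked Ddx3y (20.8 ± 0.438 RPKM, against 10.4 ± 0.498 RPKM in floxed libraries). Both RNAs were found in every library, and the groups did not overlap in either. The part of sex in the members' values was not tested.

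Promoter sequences are shown for the inhibitor Ski and the type 2 receptor Tgfbr2, as examples with motifs that SMAD proteins bind. Ski was also among the members whose groups stood apart. RefSeq promoters of build GRCm38.p6 were searched for 5 of the 10 members (Tgfb1, Tgfbr1, Tgfbr2, Smad3 and Ski), over the 250 bases before the annotated start on both strands. The RefSeq promoters used held no entry for Tgfbr3 or Skil. Smad2, Smad4 and Smad7 were left out of the search, so nothing is said here of motifs in their promoters. The Ski stretch is chr4:155222536-155222785 on the minus strand, with GGCGC, a GC-rich SMAD motif, or its reverse complement in capitals. The Tgfbr2 stretch is chr9:116175364-116175613 on the minus strand, with CAGAC, the SMAD-binding element, in capitals.
Ski: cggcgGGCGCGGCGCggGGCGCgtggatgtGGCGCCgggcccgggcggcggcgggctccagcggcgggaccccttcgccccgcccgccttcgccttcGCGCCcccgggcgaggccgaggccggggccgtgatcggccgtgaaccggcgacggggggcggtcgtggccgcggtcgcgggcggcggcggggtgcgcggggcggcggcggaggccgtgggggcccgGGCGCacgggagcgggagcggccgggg
Tgfbr2: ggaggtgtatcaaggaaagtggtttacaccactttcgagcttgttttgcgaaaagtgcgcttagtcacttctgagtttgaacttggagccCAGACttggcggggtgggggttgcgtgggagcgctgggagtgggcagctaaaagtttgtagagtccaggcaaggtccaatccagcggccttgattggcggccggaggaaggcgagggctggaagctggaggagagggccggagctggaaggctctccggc
Ski held GGCGC or its reverse complement at 7 positions, overlaps included, and CAGAC at 0, in a stretch that was 87.6% G and C, against a median of 52.4% over 32851 promoters. Tgfbr2 held CAGAC at 1 position and GGCGC at 0, with 58.4% G and C. Of the members not shown, Tgfbr1 held GGCGC at 3 positions in its stretch from 47352972 and CAGAC at 1 in that from 47385966. Tgfb1 held GGCGC at 1 position, and Smad3 held neither motif. GGCGC occurred in 32.0% and CAGAC in 42.2% of all promoters of that length, so either match is common. The AP-1 motif TGANTCA (6.75% of all promoters) and the ROR half-site TAGGTCA (2.23%) were found in 0 stretches of the 5 members. The start of Ski in the deposited table lies within its stretch, at 155222592.

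None of the 9 members that could be tested passed as higher or lower in the cKO libraries, and Smad7, the inhibitor of the type 1 receptor, came closest. Smad7 was at 23.2 ± 1.64 RPKM in cKO and 17.4 ± 0.587 RPKM in floxed libraries (SD, n = 3 each), or 133% of the floxed level, and limma's Benjamini-Hochberg adjusted p was 0.0533. The inhibitors Ski and Skil lay at 113% and 114% of the floxed level and Smad2 at 83.1% of it, each with 3 cKO values on one side of all floxed values. The ligand, the receptors, Smad3 and Smad4 overlapped between the groups. Of the 9 tested members, 3 lay apart as higher and 1 as lower, where all tested genes gave 7.61% and 12.7%. Across the whole table, 1.32% of 12731 tested genes passed, 0.652% as higher and 0.668% as lower. At an unadjusted p under 0.05 the members counted 3 higher and 1 lower, where all genes gave 5.55% and 8.6%. With limma voom on recovered reads, 1 member passed as higher, Smad7, and 0 as lower, against 1.78% and 2.41% of all genes (4.19% in all).

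**Figure D1:**
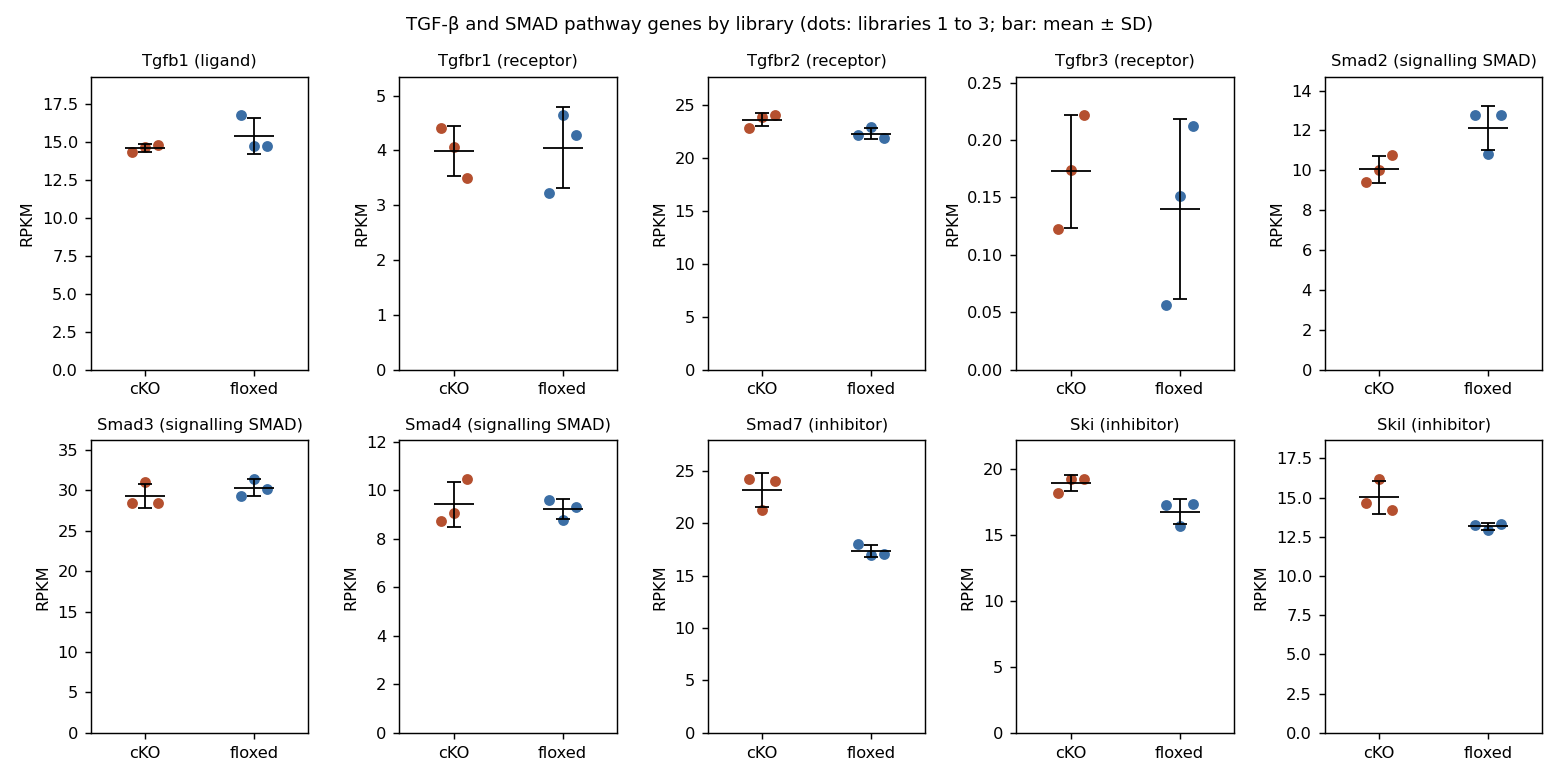
RPKM (vertical axes, from 0) of each of the 10 genes in the cKO libraries (left) and the floxed libraries (right), with each dot a library and the bar the mean ± SD (n = 3). The cKO dots of Smad7, Ski and Skil lie above all floxed dots and those of Smad2 below them, and the groups overlap in the other 6 genes. Of all tested genes, 7.61% lay apart as higher and 12.7% as lower.

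Tgfb1 (chromosome 7, 25687002 to 25705077, plus strand, mm10), a ligand made by many immune cells, overlapped between the groups. It was at 14.3, 14.7 and 14.8 RPKM in cKO libraries, against 16.8, 14.7 and 14.7 RPKM in floxed libraries. Floxed library 1 was the high one, and the other 5 libraries lay between 14.3 and 14.8 RPKM. The log2 difference on log2(RPKM + 1) was -0.07 (95% confidence interval -0.23 to 0.09, limma adjusted p = 0.711).

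Among the receptors, Tgfbr2 was the abundant one and Tgfbr3 was close to undetected. Tgfbr2 (chromosome 9, 116084293 to 116175360, minus strand), which encodes the ligand-binding type 2 kinase, was at 22.9, 23.9 and 24.1 RPKM in cKO libraries, against 22.1, 22.9 and 21.9 RPKM in floxed libraries. The lowest cKO library (22.89 RPKM) lay just under the highest floxed one (22.93 RPKM), and the log2 difference was 0.08 (interval -0.04 to 0.20, adjusted p = 0.549). Tgfbr1 (chromosome 4, 47353222 to 47414931, plus strand), which encodes the type 1 kinase that phosphorylates SMAD2 and SMAD3, was at 4.41, 4.07 and 3.496 RPKM in cKO libraries, against 3.21, 4.64 and 4.29 RPKM in floxed libraries. These values interleave, with floxed library 1 the lowest of all and floxed library 2 the highest.

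The log2 difference of Tgfbr1 was -0.01 with a wide interval of -0.34 to 0.32 (adjusted p = 0.984). Its coefficient of variation was 11.5% in cKO and 18.3% in floxed libraries. Tgfbr3 (chromosome 5, 107106570 to 107289629, minus strand) encodes betaglycan, a coreceptor that presents the ligand. It rested on 18, 24 and 32 reads in cKO libraries, against 8, 20 and 30 reads in floxed libraries, which is 0.123 to 0.222 RPKM in cKO and 0.0563 to 0.212 RPKM in floxed libraries. It did not reach 1 RPKM in any library and was not tested, and 4.54% of its exon bases are shared with the predicted gene Gm43422. The exons of the other 9 members are shared with no other gene of the table.

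Within a library, Tgfbr2 exceeded Tgfbr1 by 5.99 ± 0.846 times in cKO and 5.64 ± 1.08 times in floxed libraries, both per length. The groups overlapped in this ratio, as they did in both receptors.

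Of the SMADs that carry the signal, Smad3 and Smad4 overlapped between groups, while Smad2 lay lower in the cKO libraries without passing. Smad3 (chromosome 9, 63646767 to 63757994, minus strand), a receptor-activated SMAD that binds DNA directly, was at 28.4, 31.0 and 28.4 RPKM in cKO libraries, against 29.3, 31.5 and 30.2 RPKM in floxed libraries. Its log2 difference was -0.05 (interval -0.19 to 0.08, adjusted p = 0.761). Smad4 (chromosome 18, 73639009 to 73703780, minus strand), the shared partner of the receptor-activated SMADs, was at 8.73, 9.05 and 10.5 RPKM in cKO libraries, against 9.62, 8.78 and 9.30 RPKM in floxed libraries. The cKO group held both the lowest and the highest Smad4 value, and the log2 difference was 0.02 (interval -0.18 to 0.22, adjusted p = 0.934).

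Smad2 (chromosome 18, 76241580 to 76305731, plus strand), the second receptor-activated SMAD, was at 9.42, 9.997 and 10.77 RPKM in cKO libraries, against 12.76, 10.82 and 12.75 RPKM in floxed libraries. Every cKO value was under every floxed value, but the nearest pair, cKO library 3 and floxed library 2, was only 0.0557 RPKM apart. The means were 10.1 ± 0.677 RPKM in cKO and 12.1 ± 1.12 RPKM in floxed libraries (n = 3 each), and the log2 difference was -0.24 (interval -0.45 to -0.03, adjusted p = 0.289). Groups that did not overlap were found in 12.7% of all tested genes for lower and 7.61% for higher values in cKO. Smad2 and Smad3 are paralogs, and the counting of reads that match both is not described in the labels. Smad2 made 0.344 ± 0.0307 of the Smad3 level in cKO and 0.400 ± 0.0491 of it in floxed libraries, both per length, and this ratio overlapped between the groups.

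The inhibitors Smad7, Ski and Skil all lay above their floxed values in every cKO library, as did 7.61% of all tested genes. Smad7 (chromosome 18, 75367529 to 75395935, plus strand) encodes the inhibitory SMAD that binds the active type 1 receptor and recruits ubiquitin ligases to it. It was at 24.2, 21.3 and 24.0 RPKM in cKO libraries, against 18.0, 17.0 and 17.0 RPKM in floxed libraries. The lowest cKO library exceeded the highest floxed one by 3.25 RPKM, the widest gap among the members. Between 1548 and 2459 reads per library lay behind these values, and the log2 difference of Smad7 was 0.39 (SE 0.07, interval 0.23 to 0.55). By p it stood at place 169 of all tested genes, directly after the 168 that passed.

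Smad7 passed with each library scaled to a common median (adjusted p = 0.0411) and with voom on recovered reads (adjusted p = 0.000635), and over all alternatives its adjusted p ranged from 0.000635 to 0.181. Its log2 difference stayed between 0.36 and 0.45 in every refit. Against the SMADs of the same library, Smad7 was at 2.31 ± 0.234 times Smad2 in cKO and 1.44 ± 0.119 times Smad2 in floxed libraries. The ratio to Smad3 was 0.794 ± 0.0940 in cKO and 0.573 ± 0.0380 in floxed libraries, and the groups did not overlap in either ratio. These ratios were chosen after the values were seen and were not tested.

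Ski (chromosome 4, 155154075 to 155222592, minus strand) encodes a nuclear corepressor that binds SMAD complexes. It was at 18.2, 19.3 and 19.3 RPKM in cKO libraries, against 17.2, 15.6 and 17.4 RPKM in floxed libraries. The gap between the groups was 0.835 RPKM, with floxed library 2 set below the other floxed libraries. The log2 difference was 0.17 (interval 0.02 to 0.31, adjusted p = 0.304).

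Skil (chromosome 3, 31095058 to 31122577, plus strand) encodes SnoN, a relative of SKI that represses the same complexes. It was at 14.6, 16.2 and 14.2 RPKM in cKO libraries, against 13.3, 12.9 and 13.3 RPKM in floxed libraries. The floxed values were tight, with a coefficient of variation of 1.66%, and cKO library 2 was the high one. The log2 difference was 0.18 (interval 0.02 to 0.33, adjusted p = 0.307). Without cKO library 2 the difference of Skil was 0.12, and the ratio of Skil to Ski was 0.794 ± 0.0529 in cKO and 0.787 ± 0.0330 in floxed libraries, overlapping between the groups.

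**Figure D2:**
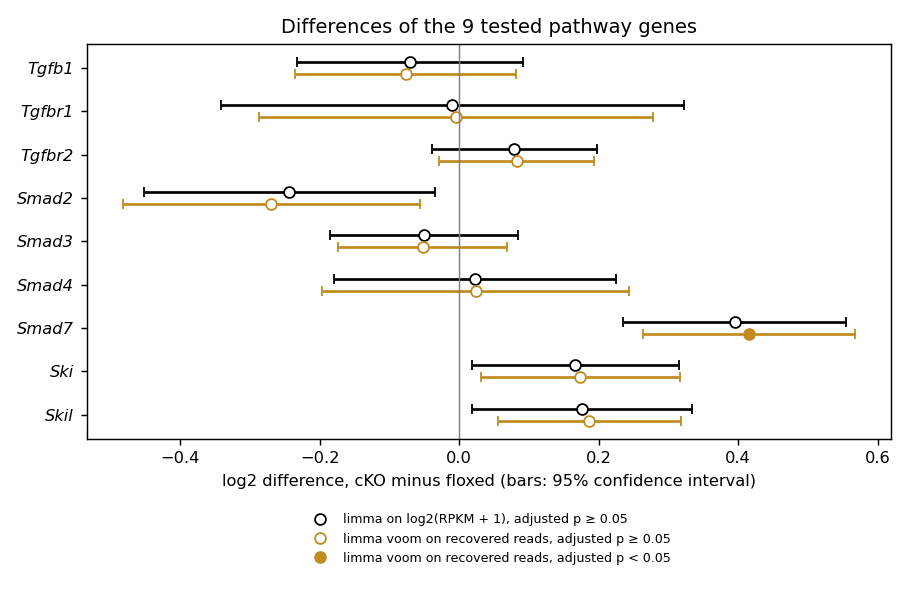
Log2 difference, cKO minus floxed, with its 95% confidence interval (horizontal axis) for the 9 tested genes, by limma on log2(RPKM + 1) in black and limma voom on recovered reads in ochre, filled where the adjusted p was under 0.05. The intervals of Smad7, Ski and Skil lie above 0 and that of Smad2 below it, and Smad7 by voom is the one filled point.

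**Figure D3:**
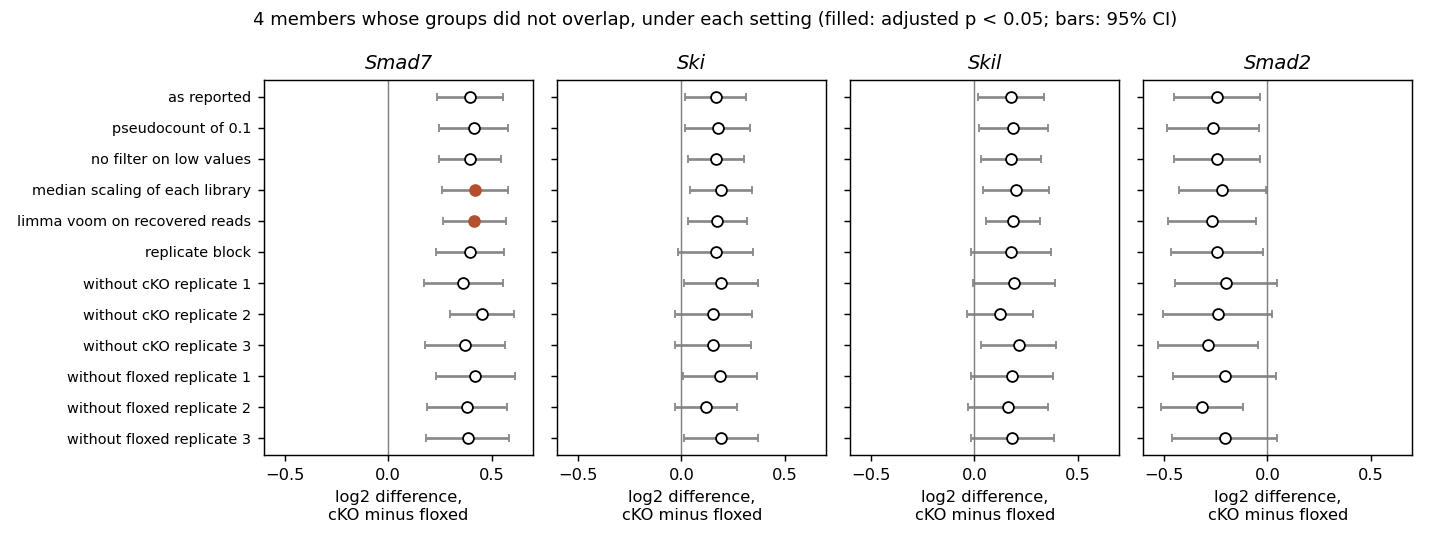
Log2 difference, cKO minus floxed, with its 95% confidence interval (horizontal axes) of Smad7, Ski, Skil and Smad2 as reported and under 11 other settings (rows), filled where the adjusted p was under 0.05. All points of Smad7, Ski and Skil lie above 0 and all of Smad2 below it, and 2 points are filled, both of Smad7.

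The libraries with more Smad7, Ski and Skil were also those with more immediate-early and dissociation-response RNA. Of 15 such genes, 12 rose and 0 fell, where 0.652% of all tested genes rose and 0.668% fell. The summed level of the 15 was 2596 to 2638 RPKM in cKO and 1527 to 1539 RPKM in floxed libraries. The part of these genes in the differences of the inhibitors was not tested. Markers of other cell types are given here as sums. They were 7.83 to 8.90 RPKM in cKO and 13.4 to 13.6 RPKM in floxed libraries for 6 B cell markers. Of these, 4 were under 1 RPKM in every library, and Cd22 fell (6.49 ± 0.649 RPKM in cKO and 9.93 ± 0.285 RPKM in floxed libraries). For 4 regulatory T cell markers the sums were 15.6 to 16.3 RPKM in cKO and 23.8 to 26.0 RPKM in floxed libraries. Il2ra fell, 3 of the 4 had a log2 difference below 0, and Foxp3 had one above 0 (adjusted p = 0.743). For 7 macrophage and monocyte markers the sums were 23.6 to 25.7 RPKM in cKO and 26.3 to 30.2 RPKM in floxed libraries, and 0 of 3 tested members passed. For 7 stromal and endothelial markers, 6 of them under 1 RPKM in every library, they were 13.9 to 16.1 RPKM in cKO and 17.4 to 17.5 RPKM in floxed libraries. Sums for 8 T cell markers were 312 to 317 RPKM in cKO and 298 to 306 RPKM in floxed libraries, most of it Trbc1 (252 ± 0.200 RPKM in cKO and 231 ± 5.79 RPKM in floxed libraries, adjusted p = 0.200). Of the 7 T cell markers tested, 5 had a log2 difference below 0, and Cd3e fell (2.93 ± 0.142 RPKM in cKO and 5.35 ± 0.430 RPKM in floxed libraries, limma adjusted p = 0.0232). Trac and Cd8b1 were lower with no overlap, as were 12.7% of all tested genes, but did not pass (adjusted p = 0.136 and 0.0976). Sums for 6 dendritic cell markers were 91.4 to 99.2 RPKM in cKO and 100.1 to 103 RPKM in floxed libraries. Of the 3 tested, H2-Ab1 fell (26.8 ± 1.14 RPKM in cKO and 41.6 ± 3.06 RPKM in floxed libraries), and 2 had a log2 difference above 0. Itgax, 1 of these 2, was higher with no overlap, as were 7.61% of all tested genes (65.8 ± 3.49 RPKM in cKO and 56.1 ± 4.13 RPKM in floxed libraries, limma adjusted p = 0.206, voom 0.0127). Platelets, a rich source of Tgfb1, had 2 of 6 markers in the table, at sums of 1.18 to 1.87 RPKM in cKO and 1.05 to 1.58 RPKM in floxed libraries. All 24628 genes had a value above 0 in some library. A marker above 0 therefore does not show that its cell type was present. The part of these cells in the members' values was not tested. In bulk RNA, fewer cells of a type and less RNA per cell cannot be told apart.

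In the same libraries, the ILC1 markers that passed were lower and the NK markers that passed were higher. Of 10 ILC1 markers, 0 rose and 3 fell (Ncr1, Cxcr6 and Il7r), where 0.652% of all tested genes rose and 0.668% fell. All 10 had a log2 difference below 0. Their summed levels were 598 to 619 RPKM in cKO and 784 to 804 RPKM in floxed libraries. Most of the sum was Ncr1 (246 ± 12.5 RPKM in cKO and 372 ± 10.8 RPKM in floxed libraries) and Il7r (190 ± 1.93 RPKM in cKO and 228 ± 5.49 RPKM in floxed libraries). Ncr1, also a gene of NK cells, is in the column names of the cKO libraries. Of 8 conventional NK markers, 3 rose (Eomes, Klra8 and Klra4), 0 fell and 5 did not pass, against the same shares of all tested genes. The log2 difference was above 0 in 7 of the 8. It was 0.08 for Itgam, 0.03 for Itga2 and -0.02 for S1pr5 (limma adjusted p = 0.637, 0.867 and 0.948). Summed levels of the 8 were 272 to 286 RPKM in cKO and 191 to 208 RPKM in floxed libraries. Whether this balance bears on the levels of the pathway genes was not tested.

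Ordered by level per length over all 6 libraries, the members ran from Smad3 (mean 29.8 RPKM) through Tgfbr2 (23.0 RPKM), Smad7 (20.3 RPKM), Ski (17.8 RPKM), Tgfb1 (15.004 RPKM), Skil (14.1 RPKM), Smad2 (11.1 RPKM), Smad4 (9.33 RPKM) and Tgfbr1 (4.02 RPKM) to Tgfbr3 (0.156 RPKM). The steps from Smad3 to Tgfbr2, from Skil to Smad2, from Smad4 to Tgfbr1 and from Tgfbr1 to Tgfbr3 held with no overlap over all 6 libraries. The order of the middle members depended on the group. Tgfbr2 exceeded Smad7 in 3 of 3 floxed libraries without overlap, but in 2 of 3 cKO libraries, and Tgfb1 exceeded Skil in 3 of 3 floxed libraries but in 1 of 3 cKO libraries. Smad7 stood above Ski without overlap in cKO, and in floxed libraries their values overlapped. Ski and Tgfb1, and Smad2 and Smad4, kept their order in every library, although the ranges of Ski and Tgfb1 overlapped in floxed and those of Smad2 and Smad4 in cKO libraries.

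**Figure D4:**
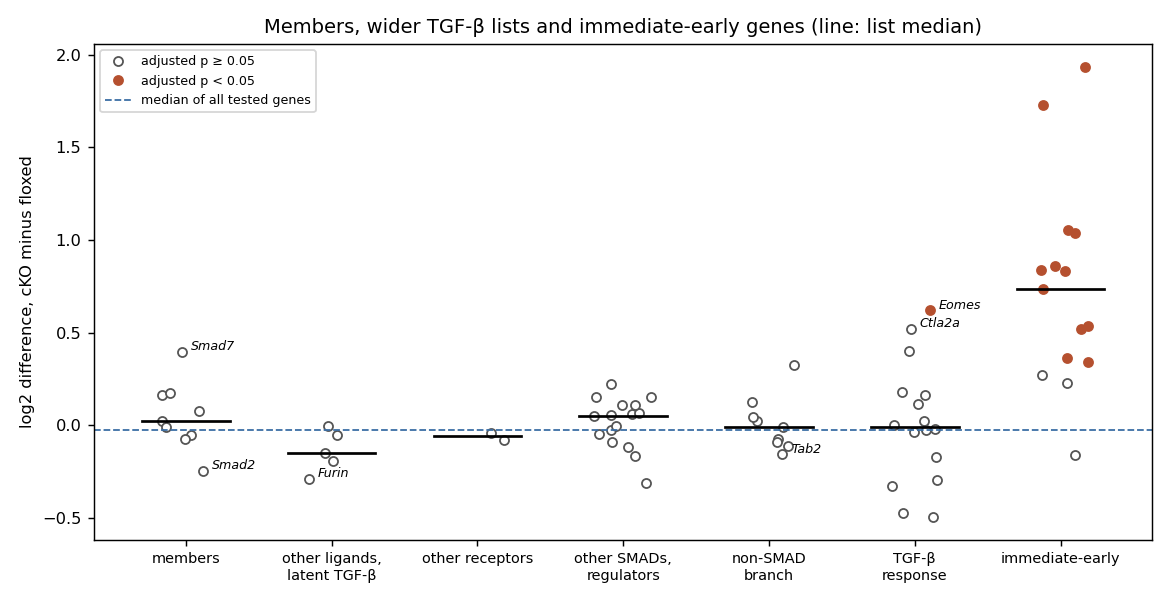
Log2 difference, cKO minus floxed (vertical axis), of the tested members, of 5 lists of other TGF-β pathway genes and of immediate-early genes, with each dot a gene, filled where limma's adjusted p was under 0.05, and a black line at each list's median. In the pathway lists 1 dot is filled, Eomes, and the medians lie between -0.15 and 0.05, while 12 of 15 immediate-early dots are filled.

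Of 73 other pathway genes in 5 lists, 48 reached the level for testing. Among these, 1 rose, 0 fell and 47 did not pass, where 0.652% of all tested genes rose and 0.668% fell. The median log2 difference of the 48 was -0.01, that of the members 0.02 and that of all tested genes -0.03. Members and lists hold both genes that carry the signal and inhibitors, so these medians give no direction of signalling. At an unadjusted p under 0.05, limma placed 3 of the 48 higher and 8 lower, where all tested genes gave 5.55% and 8.6%. By voom 3 were called higher and 5 lower, against 1.78% and 2.41% of all tested genes. The voom calls were Eomes, Ctla2a and Klf10 as higher, and Id2, Cish, Itga1, Tab2 and Furin as lower, of which Klf10, Id2, Cish and Itga1 are named after their values were seen.

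The ligand and latency list had 0 of 5 tested genes passing and a median of -0.15. Tgfb3, a second TGF-β ligand, was close to Tgfb1 in level. It was at 13.8, 11.3 and 9.47 RPKM in cKO libraries, against 12.1, 13.4 and 10.4 RPKM in floxed libraries, with overlapping groups (adjusted p = 0.911). Its ratio to Tgfb1 per length was 0.792 ± 0.163 in cKO and 0.778 ± 0.112 in floxed libraries. Furin, a protease that cleaves the TGF-β precursor, was at 6.86, 6.24 and 6.63 RPKM in cKO libraries, against 7.89, 8.65 and 8.18 RPKM in floxed libraries. The Furin groups did not overlap, and limma's adjusted p was 0.154 (voom 0.0159).

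Among other receptors of the family, 0 of 2 tested genes passed. Acvr1b, an activin type 1 receptor, averaged 5.55 ± 0.244 RPKM in cKO and 5.74 ± 0.424 RPKM in floxed libraries (n = 3 each, limma adjusted p = 0.880), and Acvr2a, an activin type 2 receptor, 1.86 ± 0.356 RPKM in cKO and 2.00 ± 0.0920 RPKM in floxed libraries (adjusted p = 0.851). Of 16 tested SMADs and SMAD regulators outside the members, 0 passed, and the median was 0.05. Stub1, a ubiquitin ligase, averaged 65.0 ± 3.93 RPKM in cKO and 61.9 ± 3.04 RPKM in floxed libraries (limma adjusted p = 0.683). Usp15, a deubiquitinase that acts on the type 1 receptor, averaged 31.2 ± 1.12 RPKM in cKO and 32.2 ± 0.965 RPKM in floxed libraries (adjusted p = 0.764).

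The non-SMAD branch had 0 of 9 genes passing. Tab2, an adaptor of the kinase TAK1, was at 71.0, 74.3 and 68.2 RPKM in cKO libraries, against 76.4, 80.6 and 81.2 RPKM in floxed libraries, with no overlap and a log2 difference of -0.16 (limma adjusted p = 0.235, voom 0.0386). Rhoa, a small GTPase, averaged 35.1 ± 3.13 RPKM in cKO and 34.5 ± 1.45 RPKM in floxed libraries (limma adjusted p = 0.923).

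In the list of genes known to respond to TGF-β, 1 of 16 tested genes rose and 0 fell, against 0.652% and 0.668% of all tested genes. The list mixes genes that TGF-β raises with genes it lowers, so its median of -0.01 gives no direction of response. Eomes, which encodes a T-box factor that TGF-β lowers in mouse NK cells, was at 68.4, 60.8 and 68.1 RPKM in cKO libraries, against 45.0, 40.2 and 41.9 RPKM in floxed libraries (log2 difference 0.62, limma adjusted p = 0.0106). All cKO values lay above all floxed values, but the call was lost without cKO library 1 (adjusted p = 0.0526), cKO library 3 (0.0556) or floxed library 3 (0.0585). Eomes is also one of the 3 conventional NK markers that rose, with Klra8 (81.9 to 87.4 RPKM in cKO and 50.3 to 56.1 RPKM in floxed libraries) and Klra4 (32.4 to 40.4 RPKM in cKO and 18.8 to 23.3 RPKM in floxed libraries), so it counts in both lists. Ctla2a, an inhibitor of cysteine proteases, was at 383, 365 and 397 RPKM in cKO libraries, against 317, 216 and 274 RPKM in floxed libraries. Its groups did not overlap, and it passed by voom (adjusted p = 5.82e-05) but not by limma on RPKM (0.155). The chemokine gene Xcl1 averaged 272 ± 37.1 RPKM in cKO and 251 ± 37.3 RPKM in floxed libraries (limma adjusted p = 0.773). Itgae, the CD103 integrin gene and a classical TGF-β target of lymphocytes, named after its value was seen, averaged 3.84 ± 0.418 RPKM in cKO and 3.89 ± 0.0533 RPKM in floxed libraries (adjusted p = 0.955).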

How the data were processed

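RNA from 3 cKO and 3 floxed libraries was extracted with TRIzol and prepared with a stranded mRNA kit, per the labels' protocols. Per the submitters' processing notes, the build was mm10 and the tools included edgeR 3.12.1, featureCounts, Subread 1.5.1 and STAR 2.5.3a. Not given in the sources used here are the tools' roles, the strand setting and the handling of duplicate and multi-mapping reads. The authors deposited RPKM per gene, and the exon lengths and coordinates used are those of the deposited table; 0 value columns were left unmapped.

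RPKM times length fell on whole reads for 100% of values within 0.001 reads. The 12731 genes that reached 1 RPKM in 3 or more libraries were tested with limma 3.58.1 in R 4.3.3, with lmFit and a trended eBayes on log2(RPKM + 1), two-sided, with Benjamini-Hochberg adjustment over all tested genes and a threshold of 0.05. Fold changes on this scale understate low genes. Alternatives were a pseudocount of 0.1, no filter, median scaling, voom on recovered reads, a replicate block and leaving out each library. Scripts were tested on simulated data. Members and gene lists were chosen with earlier results of these data known. The text names all members and, per wider list, at most 4 passing genes and the 2 others with the highest mean RPKM; exceptions are stated.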

Additional observations from a re-analysis of the deposited data

How the results depend on the processing

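Of 99 refits of the 9 tested members, 91 kept direction and side of the threshold, 2 (Smad7) newly passed and 6 turned sign, all in genes near 0. The log2 difference of Tgfbr1 turned to 0.0117 under median scaling. Leaving out 1 library gave -0.134 to 0.0759 for Tgfbr1 and -0.0490 to 0.0703 for Smad4. Members passing as higher numbered 0 as reported and 1 under median scaling and under voom. Of the wider genes, voom called 3 higher and 5 lower, and leaving out 1 library left 0 to 1 higher. Over all genes the counts, 83 higher and 85 lower as reported, were 44 and 36 without a filter and 226 and 307 by voom. Leaving out 1 library gave 33 to 51 higher and 27 to 39 lower. With the replicate number as a block, 37 rose and 23 fell. Deviations of same-numbered libraries correlated at -0.03, 0.01 and 0.04, and those of differently numbered ones at -0.0981 to 0.0861. With 3 libraries per group, these values cannot settle whether the numbers pair the libraries. Under the block limma's unadjusted p was 0.0637 for Ski and 0.0666 for Skil, against 0.0330 and 0.0338 without it, and both intervals included 0. Leaving out 1 library also brought 0 into the interval of Skil, except when cKO library 3 was left out. For Smad2 this happened without cKO library 1 or 2 or floxed library 1 or 3. For Ski it happened without cKO library 2 or 3 or floxed library 2. The interval of Smad7 excluded 0 in every refit. The cause of these shifts was not tested. Depth limits Tgfbr3 most, at 8 to 32 reads per library.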

Other observations

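Genes of the branch that answers to bone morphogenetic proteins were picked after their values were seen. Bmpr2, which encodes its type 2 receptor, was at 0.659, 0.685 and 0.776 RPKM in cKO libraries, against 0.758, 0.996 and 0.889 RPKM in floxed libraries, under the level for testing. Of its signalling SMAD genes, Smad5 was at 3.38, 2.92 and 2.90 RPKM in cKO libraries, against 3.82, 3.87 and 4.42 RPKM in floxed libraries, with no overlap (limma adjusted p = 0.247), and Smad1 averaged 1.63 ± 0.403 RPKM in cKO and 1.78 ± 0.191 RPKM in floxed libraries. Id2, a helix-loop-helix gene of innate lymphocytes and a known responder of the family, was at 108, 101 and 109.5 RPKM in cKO libraries, against 139, 122 and 131 RPKM in floxed libraries, and did not pass (limma adjusted p = 0.0917, voom 0.00438).

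Pmepa1, a direct target and feedback inhibitor of TGF-β signalling in other cells, was at 0.599, 0.617 and 0.387 RPKM in cKO libraries, against 0.366, 0.162 and 0.329 RPKM in floxed libraries. All cKO values lay above all floxed values, but the nearest pair, cKO library 3 and floxed library 1, was close (0.387 and 0.366 RPKM). Pmepa1 was under the level for testing and was picked after its values were seen. Klf10, a zinc-finger gene that TGF-β induces early in other cells, was at 11.02, 9.91 and 10.9 RPKM in cKO libraries, against 6.90, 7.45 and 9.20 RPKM in floxed libraries (limma adjusted p = 0.180, voom 0.0372). Tgfbi, a matrix protein gene named for its induction by TGF-β and also picked after its values were seen, was at 1.23, 0.814 and 1.05 RPKM in cKO libraries, against 1.96, 1.83 and 1.64 RPKM in floxed libraries, with all cKO values below all floxed values (limma adjusted p = 0.200, voom 0.138). Among the 16 tested genes in the list of responders to TGF-β, the groups did not overlap in 4 that were higher and 4 that were lower in cKO libraries, where 7.61% and 12.7% of all tested genes did so.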
